A study of Homo sapiens with 12 samples.

Results

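The genes of the mitochondrial ribosomal proteins were described across 12 Affymetrix ST arrays of NB4. This established cell line comes from a human acute promyelocytic leukemia, and all-trans retinoic acid (ATRA) makes its cells mature into granulocyte-like cells. Members were all genes with a symbol made of MRPL or MRPS and a number, measured by a probe set annotated to that gene alone, with pseudogenes and antisense genes left out. This gave 73 of the 18404 genes measured, 50 in the large ribosomal subunit and 23 in the small one. Of the 77 protein-coding genes that RefSeq lists under such symbols, 4 (MRPL51, MRPS6, MRPS24 and MRPS28) shared their probe set with another gene and are not members here.

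Control cells were wild type NB4 (1 array untreated, 1 after ATRA) and NB4 expressing scrambled shRNA, with 2 arrays per state. The knockdown group was NB4 with shRNA1 (2 arrays per state) or with shRNA2 (1 array per state), both directed at HOTAIRM1, a long noncoding RNA of the HOXA gene cluster. Treated cells had received 0.5 uM ATRA for 96 hours. Untreated arrays are listed at 0 hours, with no untreated arm at 96 hours. ATRA and 96 hours of culture therefore cannot be told apart in the ATRA comparisons. The lines that carry an shRNA were made with lentiviral vectors, sorted for GFP and grown from single cells, and whether the numbered duplicates came from different clones is not given. Each of the 4 arms, control or knockdown and untreated or ATRA, thus held 3 arrays, and p-values measure the spread between these samples, which may be partly technical. A "line" below means 1 numbered sample with its untreated and its ATRA array.

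The mitochondrial ribosome translates the few messages of the mitochondrial genome, which encode core subunits of the respiratory chain and of ATP synthase. Its proteins are encoded in the nucleus, made in the cytosol and imported into the organelle, where they join RNA transcribed from mitochondrial DNA. Part of them descend from bacterial ribosomal proteins and the others were added in the mitochondrial lineage. Among the members, 42 have a bacterial counterpart and 31 do not.

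Values were on a log2 scale, from 2.67 to 14.63 over all arrays, with array medians of 7.73 to 7.81 and correlations within an arm of 0.979 to 0.995 across genes. HOTAIRM1 had no probe set under its name, so its knockdown was not checked. The first principal component (66.7% of the variance) separated untreated from ATRA arrays. The untreated array of scrambled replicate 2 stood apart at -10.6, against -41.2 to -32.5 for the other untreated arrays, and results that depend on it are also given without it. Of 8 promyelocyte markers, 7 were measured, and CD33 had no probe set of its own. Arm means were 13.20 to 13.80 for MPO, 12.70 to 13.30 for PRTN3, 10.94 to 11.97 for MYB, 10.20 to 10.68 for AZU1 and 8.93 to 9.12 for ELANE. CTSG went with ATRA from 8.97 to 7.89 in control and from 10.51 to 8.06 in knockdown cells, and CEBPE from 9.01 to 9.84 and from 8.49 to 9.91. Of 5 T and B cell markers 4 were measured, and their arm means were 6.33 to 6.52 for CD3E, 5.49 to 5.76 for MS4A1, 7.11 to 8.09 for CD3D and 8.12 to 9.14 for CD79A, so the last was not low. Of 4 monocyte markers 3 were measured, and their means in control cells went with ATRA from 7.96 to 9.03 (CSF1R), 7.18 to 7.89 (CD14) and 6.24 to 6.72 (CD163). In knockdown cells they went from 7.95 to 8.85, 7.24 to 7.47 and 6.20 to 6.53. Arm means of erythroid markers were 6.72 to 6.94 for HBB, 7.41 to 7.79 for ALAS2 and 8.22 to 8.38 for KLF1. Those of stroma and epithelium were 8.43 to 8.70 for COL1A1, 7.73 to 7.95 for COL1A2, 7.20 to 8.06 for EPCAM and 7.87 to 8.08 for KRT8.

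The region upstream of the gene start was available for 66 of the 73 members in RefSeq's table (GRCh38.p14). Sequences of 150 bases before the start are shown for 3 of the 8 members with the largest fall in control cells that held a searched motif, to show how the searched elements lie before the start. The MRPS34 stretch is chr16:1773135-1773284, that of MRPL3 chr3:131502972-131503121 and that of MRPL36 chr5:1799838-1799987, all on the minus strand. Each is printed along its gene, 5′ to 3′, and capitals mark the motif matches.
MRPS34: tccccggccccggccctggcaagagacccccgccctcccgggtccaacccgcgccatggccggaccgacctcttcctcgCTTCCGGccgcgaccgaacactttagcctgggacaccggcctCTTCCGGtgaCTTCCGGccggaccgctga
MRPL3: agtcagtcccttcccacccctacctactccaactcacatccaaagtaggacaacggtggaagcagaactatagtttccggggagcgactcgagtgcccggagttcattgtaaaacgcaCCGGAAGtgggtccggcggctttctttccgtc
MRPL36: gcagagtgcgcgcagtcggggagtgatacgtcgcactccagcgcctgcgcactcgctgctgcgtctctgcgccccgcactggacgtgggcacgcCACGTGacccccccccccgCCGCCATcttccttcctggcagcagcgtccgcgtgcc
The capitals in MRPS34 are 3 ETS elements and those in MRPL3 are 1. MRPL36 has first an E box and then a YY1 element.

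Motifs were searched on both strands in the 250 bases before and 50 bases after the start. The ETS motif CCGGAAG, the core bound by ETS factors such as GABP, occurred in 28 of the 66 member promoters (42.4%), against 14.6% of the 14228 promoters of measured genes. The YY1 motif ATGGCGG occurred in 23 (34.8%), against 7.88% of all. Most YY1 matches in members reached the start or lay past it, such as that of MRPS34, which began at base 10. The printed stretches end before the start and do not show these, and the reason for this position was not tested. Shares were closer for CATGCGC, one arm of the NRF1 site, with 7 members (10.6%) and 5.81% of all. The E box CACGTG, bound by MYC and other factors, was in 6 members (9.09%) and 8.88% of all promoters. The CCAAT box, bound by NF-Y, was in 20 members (30.3%) and 36.3% of all promoters. At least 1 of the 5 motifs was in 54 members. These matches are descriptions of letters, with no test.

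In control cells, nearly the whole family was lower after ATRA. By limma with Benjamini-Hochberg adjustment over all genes and a threshold of 0.05, 68 of the 73 members (93.2%) fell and 0 rose. Over all 18404 genes, 20.9% fell and 15.2% rose, 36.1% in all. With arrays centred on their median, these backgrounds became 24.1% and 9.52%, and 69 members fell. Over the 12269 genes kept when those of lowest mean level were left out, 31.1% fell and 17.4% rose. The median change of the members was -0.65 on the log2 scale, against 0.05 over all genes, and 72 members had a negative change. Changes ran from -1.26 to 0.00, with the middle 50% between -0.86 and -0.46. At an adjusted p under 0.01, 58 members fell, among 2653 of the 18404 genes. The 3 ATRA arrays lay entirely below the 3 untreated arrays for 66 members (90.4%), against 23.4% of all genes in this direction and 25.2% in the other. In bulk samples, fewer cells of a type and less RNA per cell cannot be told apart, and the part of the marker changes given above in this result was not tested.

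The mean level of the 73 members in single control arrays was 10.19, 9.95 and 10.16 before ATRA (scrambled 1, scrambled 2, wild type). After ATRA it was 9.51, 9.45 and 9.37 in the same order. The untreated scrambled replicate 2 was the lowest of its arm, and still above every ATRA array. Without both arrays of scrambled replicate 2, 65 members fell, with a median of -0.72, against 19.1% of all genes. The median change by line was -0.75 in wild type, -0.67 in scrambled 1 and -0.47 in scrambled 2, with 72 of 73 changes negative in each. Over all genes, 42.5%, 49.1% and 47.0% of changes were negative in these lines.

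**Figure D1:**
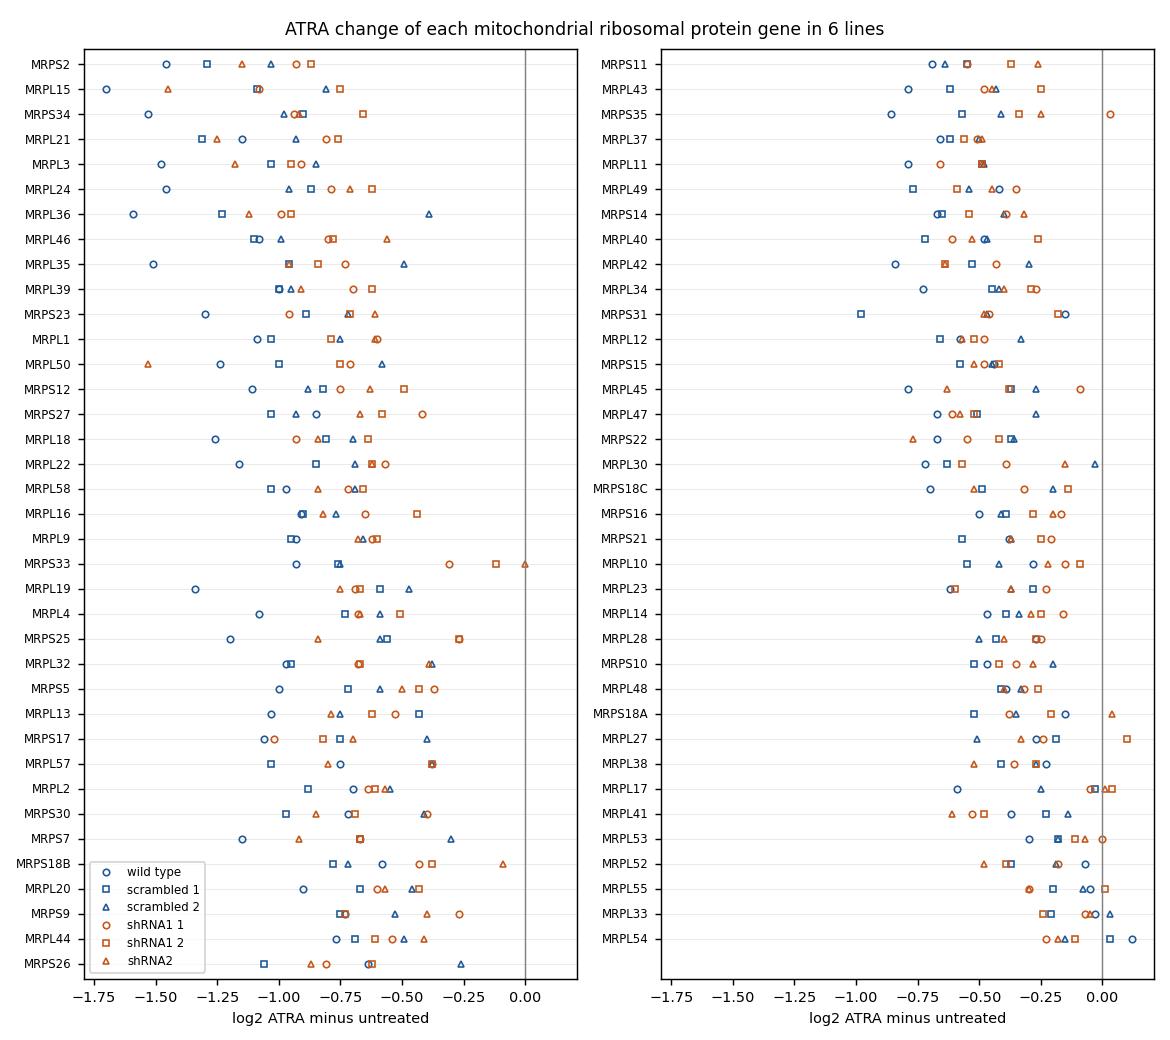
ATRA minus untreated log2 change of each of the 73 genes (vertical axis) in 6 lines, control lines in blue and knockdown lines in orange, ordered by the mean change of control lines. Nearly all points lie left of 0, and 65 genes were lower in all 6 lines. The share of all genes lower in all 6 lines was not counted.

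Members of both subunits fell. In the large subunit 46 of 50 members fell (median -0.60), and in the small subunit 22 of 23 (median -0.67). Of the members with a bacterial counterpart 40 of 42 fell (median -0.69), and of the mitochondrial additions 28 of 31 (median -0.61). The lowest of the 4 medians by subunit and descent were -0.74 for the 29 large subunit proteins with a bacterial counterpart and, equally, -0.74 for the 10 additions of the small subunit, all of which fell. These medians are descriptions, and their differences were not tested.

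The largest fall was that of MRPS2, the counterpart of bacterial S2 in the small subunit. Its log2 level was 10.64, 10.19 and 10.54 untreated (scrambled 1, scrambled 2, wild type) and 9.35, 9.16 and 9.08 after ATRA. No ATRA array came near the untreated ones, and the change was -1.26 (SE 0.12, limma adjusted p = 6.64e-05), which leaves 41.7% of the untreated level. MRPS34, a small subunit protein without a bacterial counterpart, went from 10.72, 10.50 and 10.64 to 9.83, 9.52 and 9.11. No ATRA array reached the untreated ones, and wild type was the lowest (change -1.14, SE 0.15, adjusted p = 0.000241).

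Of the large subunit, MRPL15 and MRPL21, both with bacterial counterparts, fell most. MRPL15 was 10.12, 9.86 and 10.26 before and 9.03, 9.05 and 8.56 after ATRA (change -1.20, SE 0.16, adjusted p = 0.000235). MRPL21 was 11.14, 10.74 and 10.98 before and 9.83, 9.81 and 9.83 after (change -1.13, SE 0.11, adjusted p = 6.85e-05). The ATRA arrays of MRPL21 were nearly equal, while those of MRPL15 were lowest in wild type cells. MRPL3, the counterpart of the bacterial protein L3 near the peptidyl transferase centre, had levels of 11.00, 10.84 and 11.08 and then 9.97, 9.99 and 9.60. Its arrays did not overlap either, with a change of -1.12 (SE 0.11, adjusted p = 7.21e-05). MRPL24 changed by -1.10 (SE 0.15, adjusted p = 0.000293), with untreated arrays of 9.65, 9.32 and 9.66 and ATRA arrays of at most 8.78.

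MRPL46, an addition of the large subunit, had the smallest p of the family. It was 11.20, 11.05 and 10.99 untreated and 10.10, 10.06 and 9.91 after ATRA, a change of -1.06 (SE 0.09, adjusted p = 3.70e-05). The 3 lines agreed closely in its change, at -1.08 in wild type, -1.10 in scrambled 1 and -0.99 in scrambled 2.

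MRPL36 was the one member with more than 1 probe set, and they disagreed. By the brighter one, used throughout, it fell by 1.07 (SE 0.19, adjusted p = 0.00124), from 11.55, 10.99 and 11.38 to 10.32, 10.60 and 9.78. The other probe set changed by 0.99 in wild type, 0.41 in scrambled 1 and 0.35 in scrambled 2. With the mean of both probe sets, the change was -0.24 and did not pass the test (adjusted p = 0.0785), so the fall of MRPL36 depends on the probe set.

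**Figure D2:**
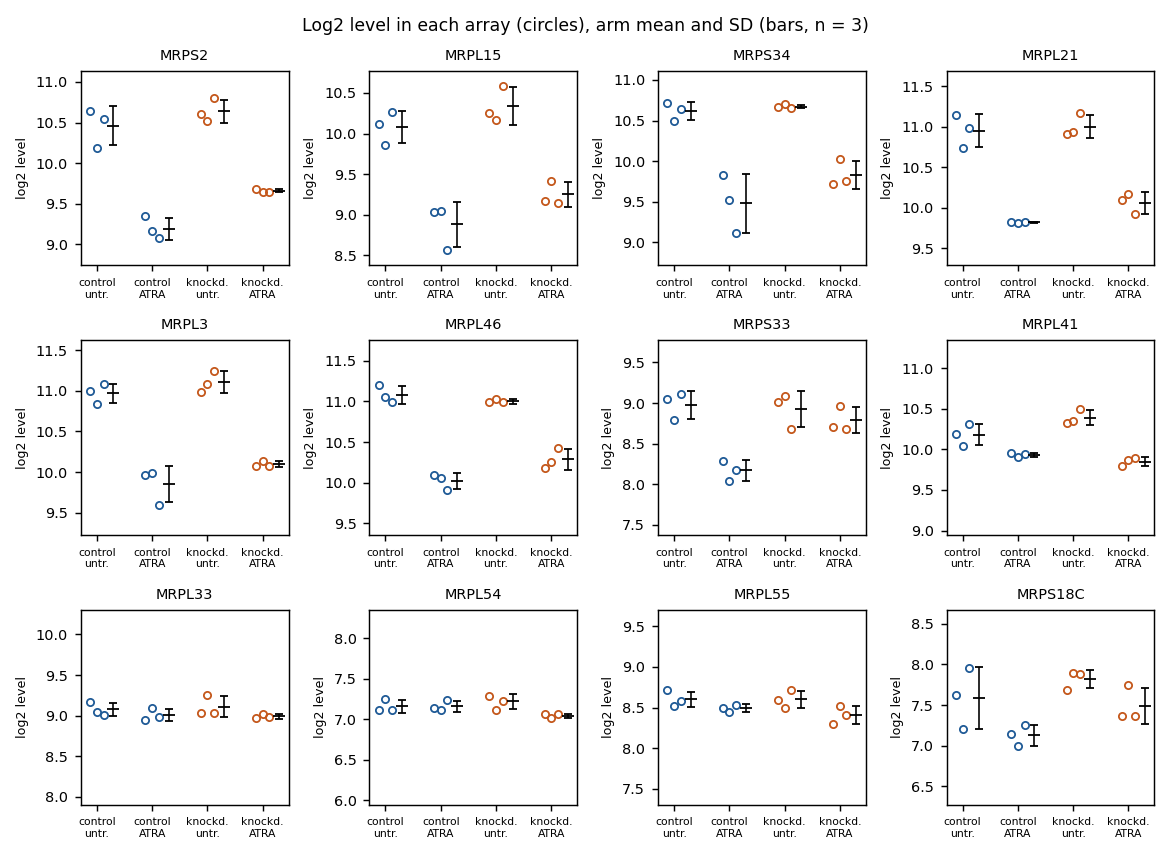
Log2 level of 12 member genes in each array (circles, 3 per arm) with the arm mean and SD (bars), for control (blue) and knockdown cells (orange), untreated and after ATRA. MRPS2, MRPL15, MRPS34, MRPL21, MRPL3 and MRPL46 are lower after ATRA with no overlap, MRPS33 only in control cells, while MRPL33, MRPL54 and MRPL55 stay within a narrow range.

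In control cells 5 members did not pass the test. They were MRPS18C (-0.46, adjusted p = 0.0521), MRPL52 (-0.21, adjusted p = 0.169), MRPL55 (-0.11, adjusted p = 0.305), MRPL33 (-0.07, adjusted p = 0.523) and MRPL54 (0.00, adjusted p = 0.993). MRPL54, an addition of the large subunit, was 7.11, 7.25 and 7.12 untreated and 7.14, 7.11 and 7.24 after ATRA. Its mean over the 12 arrays was 7.15, below every array median (7.73 to 7.81). Whether this level lies above background was not tested. MRPL33, which has a bacterial counterpart, was 9.17, 9.05 and 9.01 and then 8.95, 9.09 and 8.98. The arrays of both genes overlapped between states. MRPL10 and MRPL49 passed the test although their arrays overlapped, in each case because untreated scrambled 2 lay below wild type after ATRA (8.98 and 9.02 for MRPL10, 11.03 and 11.07 for MRPL49).

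The MRPS18 genes are 3 paralogs related to bacterial S18. MRPS18C, in the small subunit, is counted here as the bacterial counterpart, and MRPS18A (large subunit) and MRPS18B (small subunit) as mitochondrial additions. MRPS18B fell by 0.69 (SE 0.09, adjusted p = 0.000266), from 10.36, 10.28 and 10.16 to 9.58, 9.55 and 9.58. MRPS18A fell by 0.34 (SE 0.11, adjusted p = 0.0284), from 11.11, 10.79 and 10.89 to 10.59, 10.44 and 10.74. MRPS18C, whose untreated arrays ranged from 7.20 to 7.96, overlapped with its ATRA arrays of 6.99 to 7.26. The 3 changes were not compared by a test.

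In knockdown cells most members were lower after ATRA as well. Here 54 of 73 members (74.0%) fell and 0 rose, against 14.7% and 10.1% of all genes, 24.8% in all. Over the 12269 genes of higher mean level, 22.1% fell and 14.1% rose. The median change was -0.52, against -0.03 over all genes, and changes ran from -1.09 to 0.00. The arrays of the 2 states did not overlap, in the lower direction, for 65 members (89.0%), against 24.6% of all genes, and 16.7% of all genes in the other direction. Without both shRNA2 arrays 40 members fell, and the share of all genes that fell was then 7.27%.

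The mean level of the members was 10.11, 10.14 and 10.19 untreated (shRNA1 1, shRNA1 2, shRNA2) and 9.60, 9.66 and 9.62 after ATRA. These arrays were closer to each other than those of the control arms. The median change was -0.48 in shRNA1 1, -0.51 in shRNA1 2 and -0.56 in shRNA2, with 72, 70 and 70 negative changes. Over all genes, 50.8%, 54.7% and 60.3% of changes were negative in these lines. By subunit, 38 of 50 large subunit members (median -0.54) and 16 of 23 small subunit members (median -0.46) fell. By descent, 33 of 42 with a bacterial counterpart (median -0.56) and 21 of 31 additions (median -0.47) fell.

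The largest falls in knockdown cells included genes already named for control cells. MRPL15 was 10.25, 10.17 and 10.59 untreated (shRNA1 1, shRNA1 2, shRNA2) and 9.17, 9.42 and 9.14 after ATRA, a change of -1.09 (SE 0.16, adjusted p = 0.000745). MRPL3 was 10.99, 11.09 and 11.25 and then 10.08, 10.14 and 10.07 (-1.01, SE 0.11, adjusted p = 0.000235). MRPS2 was 10.61, 10.52 and 10.80 and then 9.68, 9.65 and 9.65 (-0.98, SE 0.12, adjusted p = 0.000370). None of these genes had overlapping arrays, and shRNA2 gave the largest change of the 3 lines in each. MRPL36 changed by -1.02 by its brighter probe set (adjusted p = 0.00247) and MRPL21 by -0.94 (adjusted p = 0.000313). With the mean of both probe sets the change of MRPL36 was -0.42 (adjusted p = 0.00995).

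The list of largest falls was completed by MRPL50, MRPS17 and MRPL35. MRPL50, an addition of the large subunit, was 10.69, 10.67 and 11.18 untreated and 9.98, 9.93 and 9.65 after ATRA (-0.99, SE 0.17, adjusted p = 0.00150). Its change in shRNA2 cells, -1.53, was larger than that in the shRNA1 lines, -0.71 and -0.75. MRPS17, the counterpart of bacterial S17, fell by 0.85 (SE 0.12, adjusted p = 0.000570), and MRPL35 also fell by 0.85 (SE 0.14, adjusted p = 0.00151). In control cells these 3 genes had fallen by 0.94, 0.74 and 0.99.

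Both ATRA comparisons, which share no arrays but rest on 1 shared estimate of the spread, called 53 members lower. These were 77.9% of the 68 called in control cells and 98.1% of the 54 called in knockdown cells. The share of all genes called in both was not counted, so this overlap cannot be read as particular to the family. In control cells alone 15 were called, which were MRPL10, MRPL17, MRPL27, MRPL30, MRPL34, MRPL45, MRPL49, MRPL53, MRPS16, MRPS18A, MRPS21, MRPS25, MRPS31, MRPS33 and MRPS35. MRPL52 alone was called in knockdown cells and not in control cells (-0.35, SE 0.12, adjusted p = 0.0454, against -0.21, adjusted p = 0.169). MRPL33, MRPL54, MRPL55 and MRPS18C were called in neither. A call in 1 kind of cells and not in the other does not show a difference between them, for which the direct test is given below.

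Members that changed more in control cells also changed more in knockdown cells. Across the 73 members, Pearson's r between the mean changes was 0.83, and between single lines it ran from 0.47 to 0.75. This is a description across genes, which share arrays and are not independent. The change was nearer to 0 in knockdown cells for 59 members and larger for 14.

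**Figure D3:**
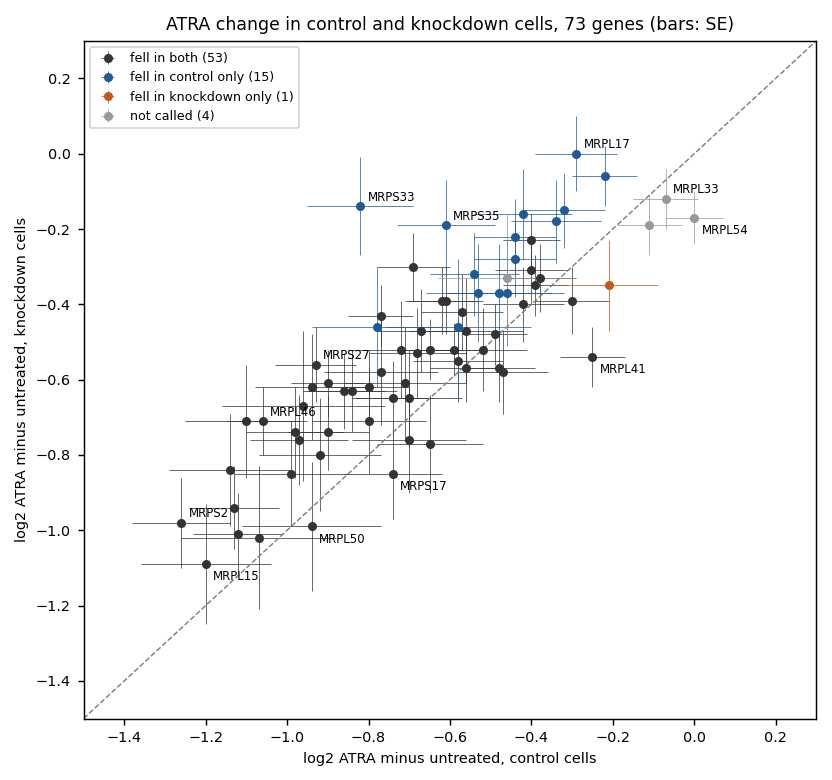
Mean log2 ATRA change in control cells (horizontal) against knockdown cells (vertical) for the 73 genes, with standard errors, and a line of equal change. Most points lie between -1.26 and 0.00 on both axes, with 59 of 73 on the side of the smaller fall in knockdown cells.

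Whether knockdown changed the members before ATRA was asked by comparing the untreated arms. By limma, 0 members passed an adjusted p of 0.05, as did 0.00% of all genes in either direction, and the smallest adjusted p of a member was 0.999. At an unadjusted p under 0.05 there were 2 members, among 727 genes. The median difference was 0.05, with 52 positive, and -0.02 without untreated scrambled replicate 2. Arrays did not overlap for 4 members higher in knockdown cells (5.48%, against 3.75% of all genes), MRPL37, MRPL41, MRPL47 and MRPS17, and for 1 lower, MRPS11 (against 4.04% of all genes).

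The 2 members with an unadjusted p under 0.05 were MRPL41 and MRPS17. MRPL41, an addition of the large subunit, was 10.19, 10.04 and 10.31 in untreated control cells (scrambled 1, scrambled 2, wild type) and 10.33, 10.35 and 10.50 in untreated knockdown cells, a difference of 0.21 (SE 0.08). MRPS17 was 9.71, 9.35 and 9.72 against 9.95, 9.90 and 9.80, a difference of 0.29 (SE 0.12). The gap between nearest arrays was small in both. The other members named by the smallest p in each direction were MRPL50 (0.29, SE 0.17), MRPS18B (-0.19, SE 0.09), MRPS11 (-0.14, SE 0.09) and MRPL10 (-0.20, SE 0.12), all with an adjusted p of 0.999.

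After ATRA, no member passed the test between knockdown and control cells, while 64 of 73 (87.7%) had a higher mean in knockdown cells, against 45.3% of all genes. Of all genes, 0.0598% passed, 0.0543% higher and 0.00543% lower. At an unadjusted p under 0.05 there were 22 members and 5171 genes in all. The median difference of the members was 0.18, against -0.03 over all genes and 0.05 over the 12269 genes of higher mean level. The 3 knockdown arrays lay above the 3 control arrays for 30 members (41.1%), against 14.3% of all genes, and below them for 2 (2.74%), against 20.7%. By quantile normalization the median was 0.10.

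The smallest adjusted p was 0.0539, shared by MRPS27, MRPS33 and MRPS5, all of the small subunit. MRPS33, an addition, was 8.29, 8.04 and 8.17 in control cells after ATRA and 8.70, 8.97 and 8.68 in knockdown cells, a difference of 0.62 (SE 0.13). MRPS27, a pentatricopeptide repeat protein, was 10.38, 10.17 and 10.39 against 10.95, 10.77 and 10.69 (0.49, SE 0.10). MRPS5, the counterpart of bacterial S5, was 9.20, 9.28 and 9.08 against 9.57, 9.52 and 9.47 (0.34, SE 0.08). In all 3 genes every knockdown array was above every control array. MRPS35 (0.50, SE 0.12, adjusted p = 0.0555) and MRPS2 (0.47, SE 0.12, adjusted p = 0.0603) came next.

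These 5 genes sit at the edge of the threshold. They were called higher with arrays centred on their median (adjusted p of 0.0398 for MRPS27, MRPS33 and MRPS5) and with array weights. At these settings 1.80% and 2.08% of all genes were called higher, and 0.397% and 1.70% lower. Without untreated scrambled replicate 2, which enters only through the estimate of spread, these 5 and MRPL1 were called, 6 in all, while 2.28% of all genes were called higher and 1.53% lower. Without both arrays of scrambled replicate 2, 0 were called. On the other side, the members with the smallest p among those lower in knockdown cells were MRPL54 (-0.12, SE 0.07, adjusted p = 0.297), MRPL38 (-0.10, SE 0.09, adjusted p = 0.456) and MRPL41 (-0.08, SE 0.08, adjusted p = 0.516).

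The shRNAs were set against different controls to see whether they gave the same direction. After ATRA, the mean of the shRNA1 arrays minus that of the scrambled arrays had a median of 0.14 over the members, with 59 positive. The shRNA2 array minus the wild type array had a median of 0.26, with 65 positive, and both differences were positive for 55 members. For MRPS33 they were 0.67 and 0.51, for MRPS27 0.59 and 0.30, and for MRPS5 0.31 and 0.39. Untreated, the medians were 0.05 (50 positive) and 0.03 (45 positive), with 27 members positive in both. These differences have no test, since shRNA2 and wild type each have 1 array per state. Wild type cells carry no shRNA vector, so vector and shRNA2 cannot be told apart in that difference. The partner also matters. The mean level of the members after ATRA was 9.62 in shRNA2, 9.37 in wild type, and 9.51 and 9.45 in the scrambled arrays.

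**Figure D4:**
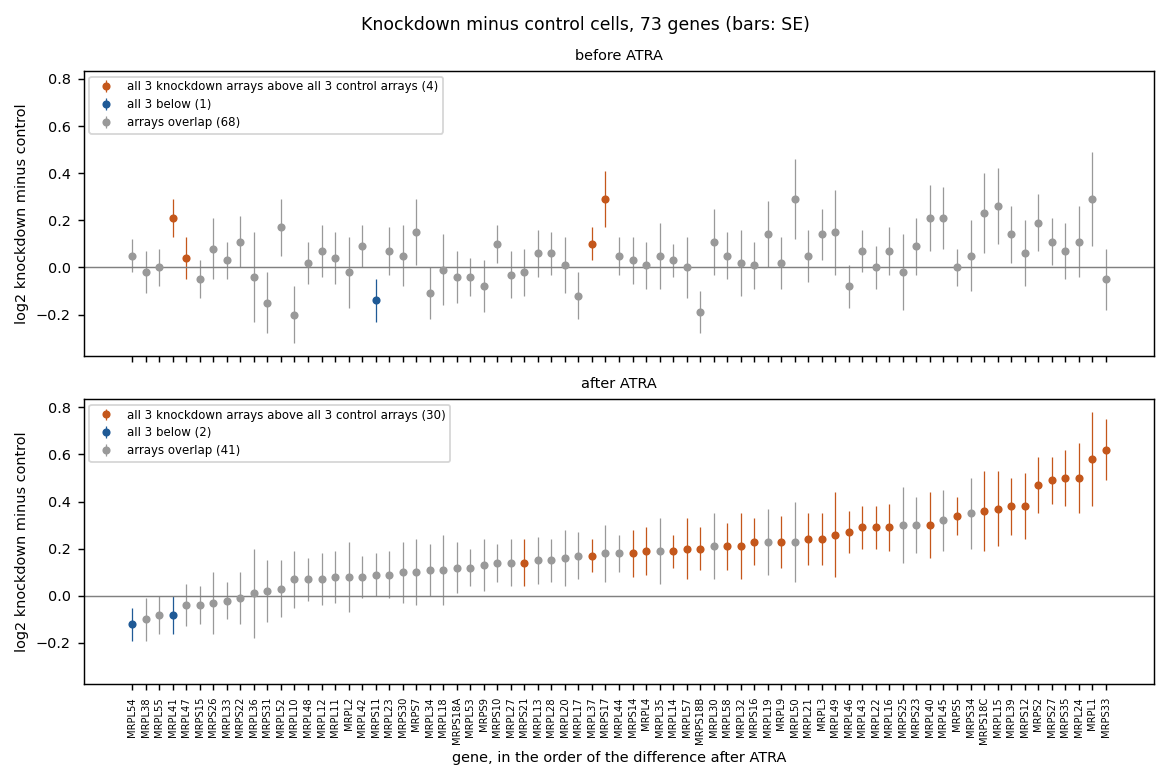
Knockdown minus control log2 difference of the 73 genes with standard errors, untreated in one panel and after ATRA in the other. Untreated differences scatter around a median of 0.05, and after ATRA 64 of 73 are above 0, with a median of 0.18 and none past the threshold.

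The difference between the ATRA responses, knockdown minus control, was tested directly. No member passed (smallest adjusted p = 0.271), as did 0.00% of all genes, and 7 members had an unadjusted p under 0.05, among 2815 genes. The difference was positive, a smaller fall in knockdown cells, for 59 members, with a median of 0.15, against 48.7% of all genes and a median of -0.01. Over the 12269 genes of higher mean level the median was 0.07. On the first principal component over all genes, ATRA arrays stood at 20.8 to 28.0 in knockdown and 34.2 to 43.5 in control cells. All genes include many that did not change with ATRA, and whether the smaller fall is particular to this family was not tested. By line, the 3 knockdown changes lay above the 3 control changes for 16 members (21.9%, against 9.16% of all genes) and below them for 1 (1.37%, against 13.4%). The untreated and ATRA arrays of a line are matched by label and number. This comparison and that after ATRA share arrays and are not separate evidence.

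MRPS33 showed the largest difference, 0.67 (SE 0.18, adjusted p = 0.271). Its changes were -0.93 in wild type, -0.76 in scrambled 1 and -0.75 in scrambled 2, against -0.31 in shRNA1 1, -0.12 in shRNA1 2 and 0.00 in shRNA2. MRPS5 differed by 0.34 (SE 0.11, adjusted p = 0.271) and MRPS18B by 0.39 (SE 0.13, adjusted p = 0.276), the latter with changes of -0.58, -0.78 and -0.72 against -0.43, -0.38 and -0.09. In these 3 genes the lines of the 2 kinds did not overlap.

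MRPL41 was the member that lay the other way. Its changes were -0.37 in wild type, -0.23 in scrambled 1 and -0.14 in scrambled 2, against -0.53 in shRNA1 1, -0.48 in shRNA1 2 and -0.61 in shRNA2, a difference of -0.30 (SE 0.11, adjusted p = 0.287). MRPL54 (-0.17, SE 0.10, adjusted p = 0.414) and MRPL52 (-0.14, SE 0.16, adjusted p = 0.673) were next in that direction, both with overlapping lines.

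Proteins of the same ribosome that carry other symbols also fell, while those of the cytosolic ribosome mostly did not pass the test. All 4 measured of the first kind fell in both ATRA comparisons (median -0.46 in control, -0.45 in knockdown cells), among them PTCD3 (-0.65, SE 0.10, adjusted p = 0.000443 in control cells), CHCHD1 (-0.47) and DAP3 (-0.44). Of 57 cytosolic ribosomal proteins, 15 fell (26.3%) and 0 rose in control cells (median -0.16), and 5 fell (8.77%) and 2 rose in knockdown cells (median -0.05). Over all genes, the background for these and the lists below, 20.9% fell in control and 14.7% in knockdown cells. Over the 12269 genes of higher mean level, 31.1% and 22.1% fell. The median of the cytosolic proteins by line ran from -0.25 in scrambled 1 to 0.09 in shRNA1 1. The counts of the 2 kinds were not compared by a test.

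Factors that build the mitochondrial ribosome also fell. Of 25 measured assembly factors, 23 fell in control cells (median -0.66) and 13 in knockdown cells (median -0.46), where 1, MTG1, rose (0.33, adjusted p = 0.0322). RPUSD4, a pseudouridine synthase acting on mitochondrial ribosomal RNA, fell by 1.01 (SE 0.10) in control cells and by 0.70 in knockdown cells. ERAL1, a chaperone of the small subunit RNA, fell by 0.81 and 0.59, and the helicase DHX30 by 0.76 and 0.58.

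Of 15 mitochondrial translation factors, 12 fell in control cells (median -0.69) and 10 in knockdown cells (median -0.46). TUFM, the mitochondrial elongation factor Tu, fell by 0.69 (SE 0.08) and 0.44. TACO1, a translational activator of COX1, fell by 0.80 and 0.58, and LRPPRC, which stabilises mitochondrial messages, by 0.87 and 0.46.

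Of 13 genes of mitochondrial transcription and RNA processing, 8 fell in each kind of cells (medians -0.67 and -0.48). TFAM, which packages mitochondrial DNA and starts its transcription, fell by 0.67 (SE 0.07) and 0.48. HSD17B10 and TRMT10C, subunits of mitochondrial RNase P, fell by 1.03 and 1.05 in control cells. Of 9 genes of mitochondrial DNA upkeep, 6 fell and 1 rose in control cells, and 5 fell and 1 rose in knockdown cells. TWNK, the replicative helicase, fell by 1.23 (SE 0.14) and 0.88, SSBP1 by 0.55 and 0.51, and POLG by 0.51 in control cells, with -0.02 (adjusted p = 0.914) in knockdown cells. The gene that rose in both was TK2, a mitochondrial thymidine kinase (0.79, adjusted p = 0.00891, and 1.05, adjusted p = 0.00258).

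Import, through which every member protein enters the organelle, had the lowest median of these lists. Of 22 measured genes 20 fell in control cells (median -0.85) and 19 in knockdown cells (median -0.73). DNAJC19 fell by 0.89, the receptor TOMM70 by 1.07 and the small chaperone TIMM10 by 1.11 in control cells. Of 31 subunits of respiratory complexes III to V, 25 fell in control cells (median -0.46) and 14 in knockdown cells (median -0.26), with CYC1, cytochrome c1, at -0.72 and -0.42, ATP5PB at -0.55 and -0.32, and ATP5ME at -0.71 and -0.50.

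Of 10 regulators of mitochondrial genes, 4 fell in both kinds of cells, GABPB1, PPRC1, MYC and TFAM. GABPB1, the beta subunit of the ETS factor GABP, changed by -0.71 (SE 0.08) in control and -0.45 in knockdown cells. PPRC1, a coactivator related to PGC-1, changed by -1.22 (SE 0.17) and -0.68, and MYC, a growth regulator, by -1.29 (SE 0.23) and -1.25. GABPA (0.13 and 0.02), NRF1 (-0.16 and -0.08) and YY1 (-0.09 and -0.19) did not pass.

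After ATRA, the median knockdown minus control difference was positive in each of these lists. Over all genes it was -0.03, and over the 12269 genes of higher mean level it was 0.05. It was 0.27 for the assembly factors (25 of 25 positive), 0.25 for import (20 of 22), 0.25 for transcription and RNA processing (12 of 13) and 0.18 for translation factors (13 of 15). It was 0.19 for the ribosomal proteins under other symbols (3 of 4), 0.16 for DNA upkeep (7 of 9), 0.15 for complexes III to V (28 of 31), 0.14 for cytosolic ribosomal proteins (52 of 57) and 0.05 for the regulators (5 of 10).

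**Figure D5:**
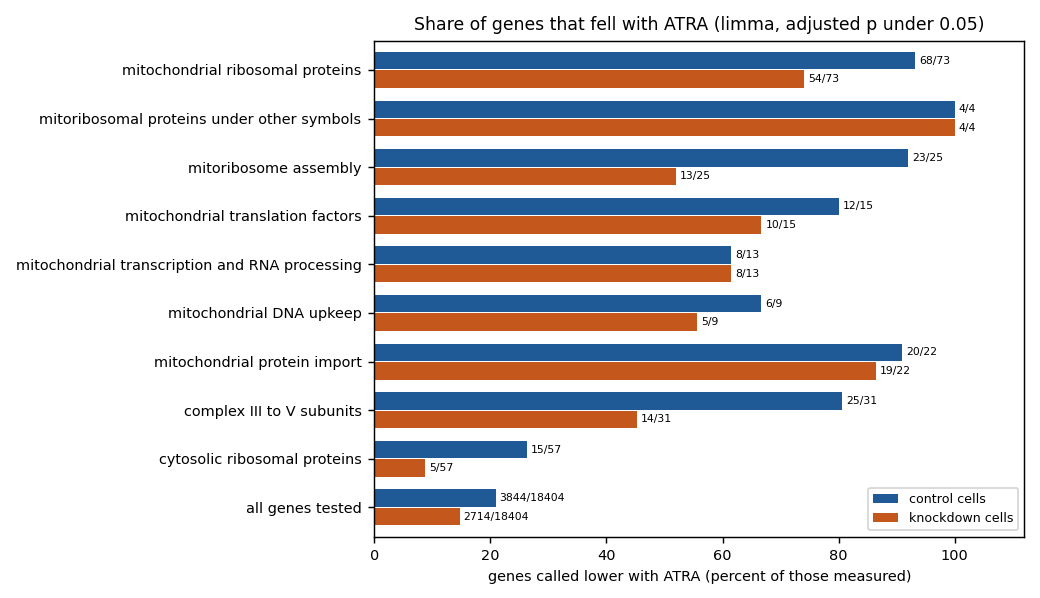
Share of each gene list that fell with ATRA (percent, limma adjusted p under 0.05) in control and knockdown cells. The mitochondrial ribosomal proteins stand at 93.2% and 74.0%, beside 20.9% and 14.7% over all genes.

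Promoter motifs were set beside the change in control cells, as a description. Members with the ETS motif had a median change of -0.46 (28 genes), and those without it -0.70 (38 genes). For YY1 the medians were -0.69 with (23 genes) and -0.58 without the motif (43 genes), and for NRF1 -0.69 (7 genes) and -0.61 (59 genes). They were -0.58 and -0.64 for the E box and -0.66 and -0.59 for the CCAAT box.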

How the data were processed

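Total RNA was converted to biotin-labelled cDNA and hybridised to ST arrays, per the labels' protocols. The authors deposited 1 log2 value per probe set and array, and the submitters' processing notes name RMA and limma, without versions. The platform annotation gave a single gene for 19158 of 32321 probe sets, several genes for 1388, and no entry for 11775. Where a gene had several 1-gene probe sets (637 genes), that with the highest mean was kept. All members were tested, with no filter on low values, and 0 columns were unmatched to a sample.

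Arm means were fitted to all 12 arrays and 18404 genes with limma 3.58.1 in R 4.3.3 (lmFit, eBayes, 8 residual degrees of freedom), and the 5 contrasts were adjusted by Benjamini-Hochberg over all genes. The smallest two-sided p of an exact permutation of 3 and 3 arrays is 0.1, so none was used. The fit was run on simulated arrays with independent noise and known changes, to check that their mean size was recovered. That does not test its error rate in the real arrays. In knockdown cells, deviations of the untreated and ATRA arrays of a line correlated at 0.16, 0.23 and 0.12. Those of different lines correlated at -0.16 to -0.00. These small values were not tested and do not settle whether the arrays of a line are paired. The fit did not use pairing. Genes described by array were the 8 called members with the largest fall in each ATRA comparison whose arrays did not overlap, the 3 with the smallest p in each direction elsewhere, members never called, and the MRPS18 paralogs, with 3 genes of each companion list. MRPS35, MRPS2 and MRPL1 after ATRA, MYC, TK2 and MTG1 were named after their values were seen. Members, lists and rules were chosen with earlier results of these data known. The number of arrays limits the precision. The alternatives were other normalizations, filters, weights, probe set choices, blocks and arrays left out.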

Additional observations from a re-analysis of the deposited data

How the results depend on the processing

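In control cells 55 to 69 members fell over all alternatives, the lowest count both with quantile normalization and without the wild type arrays, where 16.7% and 13.5% of all genes fell. In knockdown cells 40 to 61 members fell, where 7.27% to 22.1% of the genes tested fell. In either kind of cells 0 members rose. Leaving out 1 array at a time gave 59 to 67 members in control and 47 to 58 in knockdown cells. The shares of all genes that fell were then 16.2% to 21.1% and 10.9% to 15.6%. After ATRA, 5 members were higher in knockdown cells with array weights (2.08% of all genes), 5 with arrays centred on their median (1.80%), and 0 to 6 with 1 array left out (up to 2.28%) against 0 reported. The causes were not tested. The median untreated difference, 0.05, ran from -0.02 to 0.09. With the line as a replicate block, 66 members fell in control and 55 in knockdown cells, against 20.4% and 14.0% of all genes. At this setting 0 members differed in response. This block changed no call of a named member. The number as replicate block, run on the scrambled and shRNA1 arrays alone, gave 0 calls between knockdown and control. In control cells, deviations of the same line correlated at -0.17, -0.11 and 0.19, and those of different lines at -0.29 to 0.32. These values do not settle pairing there either. With 3 arrays per arm, a count of 0 does not show that the groups were equal.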

Other observations

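Probe sets annotated to a member and to another gene are not assigned to either, and their changes with ATRA are given as values. That of MRPL51 and SPTLC1 changed by -0.81 to -0.51 over the 6 lines, that of MRPS24 and the read-through URGCP-MRPS24 by -0.89 to -0.44, and that of MRPS28 and TPD52 by -1.07 to -0.38. The probe set shared by MRPS6 and SLC5A3 went the other way in every line, with changes of 1.17 in wild type, 1.51 in scrambled 1 and 1.48 in shRNA1 2 among them. That of the pseudogene MRPS31P5 ranged from -0.98 to 0.15. These changes were not tested.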
